A study of Mus musculus with 4 samples.

Results

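Paraxial mesoderm is the tissue beside the neural tube that divides into somites, the source of vertebrae, dermis and skeletal muscle of the trunk. The 10 factors described here follow that path: Tbx6 and Msgn1 specify presomitic mesoderm, Hes7 and Mesp2 time and place the somite boundaries, Tcf15 and the homeobox genes Meox1 and Meox2 act in the formed somite, and Uncx, Pax9 and Twist1 act in the sclerotome and its mesenchyme. They were taken by name, as the probe sets whose single annotated symbol is one of these genes. Each of the 10 genes had 1 such probe set, out of 19938 genes with a single symbol and 35556 probe sets in all.

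RNA was profiled on Affymetrix arrays from 4 cultures of mouse cells of the D3 embryonic stem (ES) cell line, with 1 array for each condition. Embryoid bodies (EBs), aggregates in which ES cells begin to differentiate, were collected at day 7, after 2 days in hanging drops and 5 days in suspension. They had received bexarotene, an agonist of the retinoid X receptors (RXRs), or retinoic acid (RA), the ligand of the RA receptors, or no ligand, and undifferentiated ES cells without ligand gave the fourth array. The labels give 50 nM for bexarotene and 5 µM for RA, whereas the article gives a lower, nanomolar RA dose, so in both sources the ligands were not given at the same dose. An EB holds many cell types, and on bulk RNA fewer cells of a type and less RNA per cell cannot be told apart. RA made by somites is known to oppose the signals that keep presomitic cells immature, and Meox1 and Pax3 are known to act upstream of the muscle-determining genes.

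All values are log2 signal as normalized by the authors, and differences are those between 2 arrays. A difference is counted as past the threshold at 1.5-fold, which is 0.585 on the log2 scale and is the threshold of the article. Since no condition has a second array, no difference was tested. As a yardstick of spread, genes were binned by signal and the robust SD of bexarotene minus RA was computed in each bin, which gave 0.113 to 0.129 for the 10 factors. This pair of arrays is the most alike, and the yardstick describes that pair. The same measure was larger in the other comparisons, at 0.15 to 0.23 for the 10 factors between each ligand and untreated EBs and 0.18 to 0.46 between untreated EBs and ES cells, where it also holds whatever changed between the conditions. It is called below the spread of the comparison itself. The median signal over all probe sets was 6.66 to 6.69 on the 4 arrays, and the lower quartile 5.19 to 5.22. Over the genes with a single symbol the median was higher, at 7.20 to 7.30. The array median named below is that of all probe sets. The labels were set against known genes. These can tell EBs from ES cells and treated from untreated EBs, but not the bexarotene array from the RA array. In untreated EBs, 11 of 13 genes of pluripotency lay more than 1.5-fold below ES cells, and Hoxb1, a direct target of RA receptors, had a signal of 10.02 with bexarotene and 9.25 with RA, against 6.61 in untreated EBs. Of 11 measured genes that are direct targets of retinoid receptors, 5 were past 1.5-fold higher with each ligand and none lower, and 3 well known targets were not higher with RA, Rarb at a log2 difference of -0.38, Cyp26a1 at -0.36 and Stra6 at -0.36.

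The 10 factors did not move as a group. With bexarotene, Meox1 was past 1.5-fold higher than in untreated EBs and no factor was past it lower, where 1.52% of all genes measured were higher and 2.19% lower. With RA, no factor was past 1.5-fold higher than in untreated EBs and Pax9 was lower, where 2.11% of all genes were higher and 2.29% lower. Between the ligands, Meox1 and Pax9 were higher with bexarotene than with RA and none was lower, against a background of 0.206% higher and 0.301% lower. Between untreated EBs and ES cells, Pax9 and Twist1 were higher in the EBs and Tcf15 was lower, where 11.2% of all genes were higher and 8.62% lower. The other 6 factors were past the threshold in none of these 4 comparisons. These shares over all genes are also the background for the counts over other lists, above and below. The median log2 difference of the 10 factors was 0.08 for bexarotene against untreated EBs, 0.03 for RA against untreated EBs, 0.05 for bexarotene against RA and -0.01 for untreated EBs against ES cells, and the corresponding medians over all genes were -0.01, 0.00, -0.01 and -0.04. The bexarotene and RA comparisons share the untreated array, so their values are given side by side and not correlated.

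**Figure D1:**
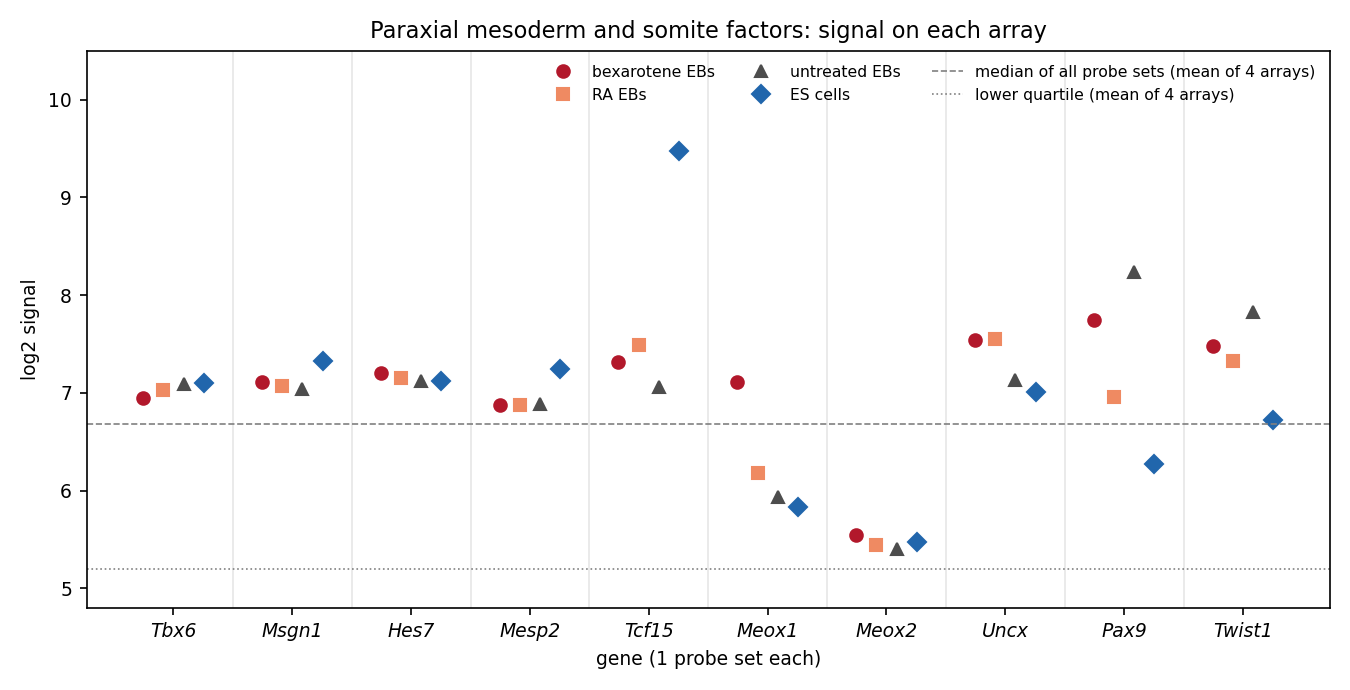
Log2 signal of the 10 factors (x axis, in order of their role) on the arrays of bexarotene-treated, RA-treated and untreated EBs and of ES cells, with 1 point per array and no replicates; lines mark the median and lower quartile of all probe sets. Meox1 stands apart with bexarotene (7.11), Tcf15 in ES cells (9.47), and Pax9 spreads between 6.28 and 8.24, while Tbx6, Msgn1, Hes7 and Mesp2 lie near the array median on every array.

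The factors of presomitic mesoderm and of segmentation hardly differed between the EB arrays. Tbx6, a T-box gene that commits progenitors to paraxial mesoderm rather than neural tissue, had a signal of 6.95 with bexarotene, 7.03 with RA, 7.09 in untreated EBs and 7.10 in ES cells. The same 4 arrays gave 7.11, 7.07, 7.04 and 7.32 for Msgn1, a bHLH gene that drives the maturation of presomitic cells. Msgn1 and Tbx6 thus kept within a narrow band in EBs, and untreated EBs were 1.22-fold below ES cells for Msgn1, a log2 difference of -0.29 where the spread of the comparison itself was 0.432. Hes7, the oscillating repressor of the segmentation clock, had a signal of 7.21 with bexarotene, 7.15 with RA, 7.12 in untreated EBs and 7.13 in ES cells. Mesp2, a bHLH gene that sets the somite boundary, had 6.87 with bexarotene, 6.88 with RA, 6.89 in untreated EBs and 7.24 in ES cells. Among the EB arrays the span of these 4 genes was 0.01 to 0.14, about the yardstick or below it, so the EB arrays have no order for them. Over all 4 arrays the span was 0.08 to 0.37. Their signals lay close to the array medians of 6.66 to 6.69, and without a detection call it is not known how much of such a signal is background, so a change confined to few cells would not be detectable here.

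Genes that work with these factors were divided. Of 25 other genes of the segmentation clock and somite boundary, 3 were past 1.5-fold higher and 2 lower with bexarotene than in untreated EBs, and 4 were higher and 1 lower with RA, with medians of -0.0006 and -0.05. The higher genes, Dll1, Hes5 and Nrarp with each ligand and Heyl with RA, belong to Notch signalling. Other Notch genes of the list, Notch1, Dll3, Lfng, Hes1, Hey1 and Hey2, were not past the threshold with either ligand, and Hes1 had log2 differences of -0.40 with bexarotene and -0.48 with RA. Nrarp, a feedback inhibitor induced by Notch, had a log2 difference of 1.22 with bexarotene and 1.60 with RA, and the Notch target Hes5 of 0.79 and 1.04. Dkk1, a secreted Wnt antagonist, had -1.53 and -1.30, and the phosphatase gene Dusp4, which is induced by FGF signalling, -0.86 and -0.55. Other FGF-induced genes of the list, Dusp6, Spry2 and Spry4, were not past the threshold with either ligand. They had -0.30, -0.16 and 0.07 with bexarotene and -0.23, 0.14 and 0.42 with RA. Hes5 and Nrarp are also expressed in neural progenitors, and each ligand had 8 of 12 genes of neural progenitors and neurons past 1.5-fold above untreated EBs, with mean signals over that list of 8.95 with bexarotene, 9.28 with RA and 7.87 in untreated EBs. The part of neural cells in these values was not tested. In the same lists, the boundary genes Ripply1 and Ripply2 were not past the threshold with either ligand, at -0.25 and 0.03 with bexarotene and -0.12 and 0.19 with RA. None of the 25 genes was past 1.5-fold between bexarotene and RA, where 0.206% of all genes were higher and 0.301% lower. Against untreated EBs, the shares over all genes were 1.52% higher and 2.19% lower with bexarotene, and 2.11% and 2.29% with RA.

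Of 19 measured genes of the primitive streak and presomitic mesoderm, 1 was past 1.5-fold higher and 5 lower with bexarotene, and 1 higher and 5 lower with RA, relative to untreated EBs. The shares over all genes were 1.52% higher and 2.19% lower with bexarotene, and 2.11% and 2.29% with RA. The gene past 1.5-fold higher was the protocadherin gene Pcdh8, a marker of paraxial mesoderm, with bexarotene (log2 difference 0.62) and Fgf4 with RA (0.67). Fgf4 is also on the list of pluripotency genes. Its signal was 8.42 with bexarotene, 8.66 with RA, 7.99 in untreated EBs and 11.12 in ES cells. Rspo3, an agonist of Wnt signalling, had log2 differences of -1.60 with bexarotene and -1.84 with RA, and Wnt5a, a Wnt ligand of the tail bud, -1.23 and -1.30. Eomes, a T-box gene of the streak, had -0.93 and -0.48. Foxc2 is a forkhead gene of paraxial mesoderm, and embryos without both Foxc2 and Foxc1 fail to form somites. Foxc2 had log2 differences of -0.55 with bexarotene and -1.09 with RA. Its signal was 7.69 with bexarotene, 7.16 with RA, 8.24 in untreated EBs and 5.29 in ES cells. Its values run in the same order over the 4 arrays as those of Pax9 and Twist1 described below.

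Tcf15, also called paraxis, is a bHLH gene that somites need to become epithelial, and it is also expressed in ES cells that are primed to differentiate. Its signal was 7.31 with bexarotene, 7.49 with RA, 7.06 in untreated EBs and 9.47 in ES cells. The ES cell array stood far above all EB arrays, which lay within 0.43 of each other. Untreated EBs were 5.33-fold lower than ES cells, rank 91 from the lowest of 19938 genes, and bexarotene-treated and RA-treated EBs were 4.46-fold and 3.94-fold lower than ES cells. Relative to untreated EBs, Tcf15 was 1.19-fold higher with bexarotene and 1.35-fold higher with RA, with neither past the threshold, and the difference of 0.43 with RA was 3.38 times the yardstick and 1.89 times the spread of the comparison itself. Pluripotency genes moved with it. Their mean signal over 13 genes was 8.80 with bexarotene, 9.03 with RA, 8.49 in untreated EBs and 10.6 in ES cells. That is the same order of arrays as for Tcf15. Relative to untreated EBs, 1 of the 13 was past 1.5-fold higher with bexarotene and 8 with RA. The shares over all genes were 1.52% and 2.11%. The part of remaining undifferentiated cells in the Tcf15 signal was not tested. By distance between mean-centred profiles over the 4 arrays, the genes most like Tcf15 among 2265 named genes that varied by at least 1 log2 unit were Nexmif (0.03), Dnajc6 (0.04) and Zp3 (0.04).

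Meox1 was the factor that set the ligands furthest apart. This homeobox gene of the early somite and dermomyotome had a signal of 7.11 with bexarotene, 6.18 with RA, 5.94 in untreated EBs and 5.83 in ES cells. The bexarotene array alone was above the median of all probe sets, and the other 3 arrays were below it. On the bexarotene array the signal was also below 7.25, the median there of genes with a single symbol. Relative to untreated EBs, Meox1 was 2.26-fold higher with bexarotene (log2 difference 1.18, rank 79 from the highest of 19938 genes) and 1.18-fold higher with RA (0.24, rank 2165). With bexarotene it was 1.91-fold higher than with RA, a difference of 0.94 that ranked 9 from the highest of all genes and was 7.90 times the yardstick. The bexarotene and untreated arrays differed by 6.04 times the spread of their own comparison. The RA and untreated arrays differed by 2.02 times the yardstick and 1.12 times that spread, and untreated EBs and ES cells by 0.87 times, so the last pair has no order. Without a detection call it is not known how much of the signal of 5.83 to 6.18 on the 3 lower arrays is background, and the folds and ranks of Meox1 carry that limit. The article features Meox1 from the same arrays, so the values here are not independent of it. It also reports Meox1 mRNA by quantitative RT-PCR, which was not examined here.

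Meox2, the paralog of Meox1, acts later in somite patterning and limb muscle. Its signal was 5.54 with bexarotene, 5.44 with RA, 5.40 in untreated EBs and 5.47 in ES cells, near the lower quartile on each array. The 4 arrays spanned 0.14, so no condition stood apart, and at this signal a small change would not be detectable.

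The genes nearest to Meox1 in pattern were Pax7 (distance 0.33), Ret (0.34) and Msx3 (0.41). Pax7, a paired box gene of muscle progenitors and dorsal neural tube, had a signal of 8.17 with bexarotene, 7.67 with RA, 7.11 in untreated EBs and 7.01 in ES cells, with RA between bexarotene and untreated EBs. Ret, a receptor for glial-derived growth factors, had 8.30, 7.49, 6.79 and 6.86 on the same arrays. Msx3, a homeobox gene of the dorsal neural tube, had 7.88, 7.29, 7.06 and 6.49. These distances rest on 4 arrays and describe likeness only.

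**Figure D2:**
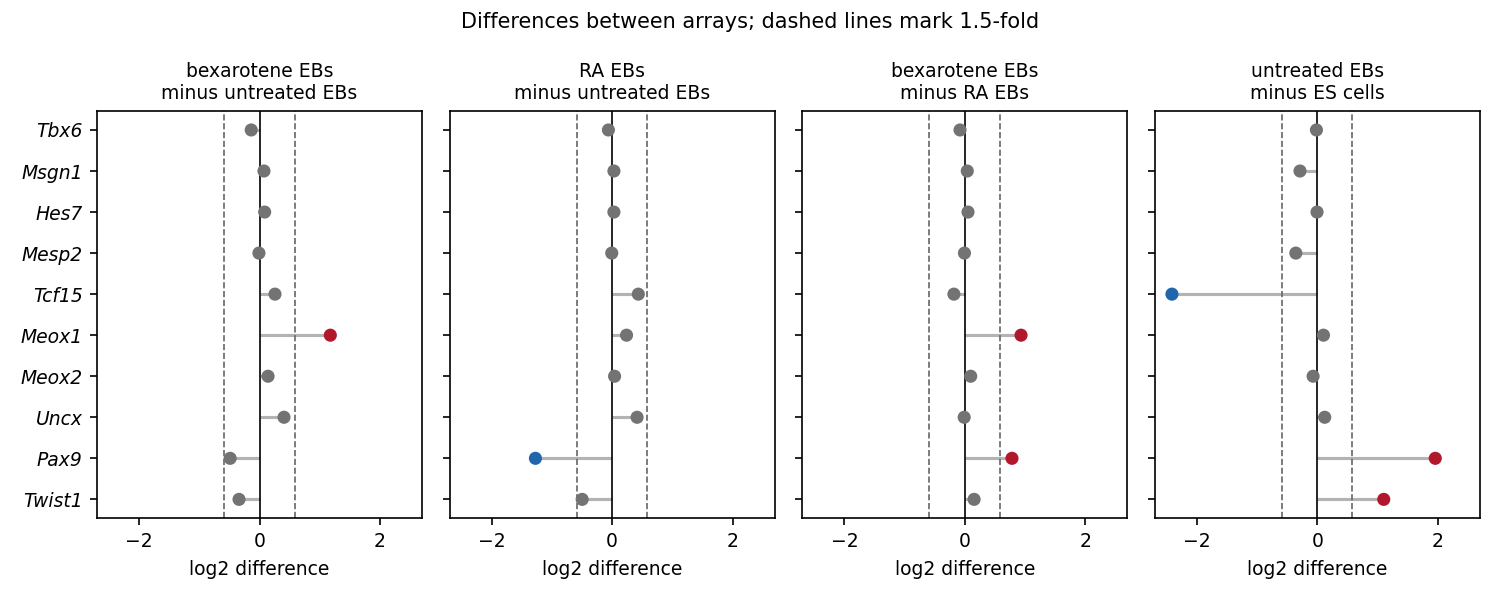
Log2 difference between arrays for each of the 10 factors in 4 comparisons; red points are past 1.5-fold higher, blue points past it lower, grey points neither, and dashed lines mark 1.5-fold. Meox1 is past the line with bexarotene (1.18) but not with RA (0.24), Pax9 with RA (-1.27) but not with bexarotene (-0.49), and both lie past it between the ligands.

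Other genes of the dermomyotome were divided. Of 15 measured genes of dermomyotome and myotome, 3 were past 1.5-fold higher and 5 lower with bexarotene than in untreated EBs, and 2 were higher and 4 lower with RA, with medians of 0.05 and -0.04. Over all genes, the shares were 1.52% higher and 2.19% lower with bexarotene, and 2.11% and 2.29% with RA. Pax3, a paired box gene that is expressed in dermomyotome, dorsal neural tube and neural crest, had a signal of 8.45 with bexarotene, 8.06 with RA, 7.45 in untreated EBs and 5.56 in ES cells, and Pax7 is given above. En1, a homeobox gene of the central dermomyotome and of the midbrain-hindbrain boundary, had 7.07 with bexarotene, 7.73 with RA, 8.92 in untreated EBs and 6.74 in ES cells. Met, the receptor that migrating muscle progenitors need, had 6.48, 6.26, 7.99 and 6.50, and Eya2, a coactivator of myogenic genes, had 7.88, 8.02, 8.97 and 6.36 on the same arrays. Only En1 was past 1.5-fold between the ligands in this list, at a log2 difference of -0.66 for bexarotene against RA. The muscle-determining genes Myf5, Myf6, Myod1 and Myog were past 1.5-fold in none of the comparisons among EBs, with log2 differences of -0.06, 0.05, 0.10 and 0.32 with bexarotene and -0.04, 0.03, 0.15 and 0.27 with RA. The article discusses several genes of this list from the same arrays, so it is not independent of them.

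Uncx, a homeobox gene of the caudal part of each sclerotome that is also expressed in parts of the neural tube, was higher with both ligands by nearly the same amount. Its signal was 7.54 with bexarotene, 7.55 with RA, 7.14 in untreated EBs and 7.01 in ES cells. Both ligand arrays lay above both other arrays, but neither difference was past the threshold, at 1.32-fold with bexarotene and 1.33-fold with RA relative to untreated EBs. Those differences were 3.15 and 3.21 times the yardstick and 1.92 and 1.80 times the spread of their own comparisons, while the ligands differed from each other by 0.07 times the yardstick and untreated EBs from ES cells by 0.96 times. The mean signal of the neural list, given above, was higher with both ligands too, and its part in the Uncx values was not tested.

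Pax9 showed the widest span of the factors among EBs. This paired box gene acts in the sclerotome and in the pharyngeal pouches, and it is made in both mesoderm and endoderm. Its signal was 7.75 with bexarotene, 6.96 with RA, 8.24 in untreated EBs and 6.28 in ES cells, and each step in that order was larger than the yardstick of 0.129. Untreated EBs were 3.89-fold higher than ES cells. Relative to untreated EBs, RA-treated EBs were 2.42-fold lower (log2 difference -1.27, rank 80 from the lowest of 19938 genes) and bexarotene-treated EBs 1.40-fold lower (-0.49, not past the threshold). These were 5.53 times the spread of the comparison itself for RA and 2.31 times for bexarotene. Untreated EBs differed from ES cells by 4.26 times that of their comparison. Bexarotene-treated EBs were thus 1.72-fold above RA-treated EBs, a difference of 0.79 that ranked 14 from the highest of all genes and was 6.10 times the yardstick. Relative to ES cells, Pax9 was 2.77-fold higher with bexarotene and 1.61-fold higher with RA.

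Markers of other tissues that make Pax9 or Twist1 moved too. Among 11 genes of pharyngeal and foregut endoderm, each ligand had 7 past 1.5-fold below untreated EBs and none above, with a mean signal over the list of 7.31 with bexarotene, 7.30 with RA, 8.45 in untreated EBs and 6.93 in ES cells. Of all genes, 1.52% were higher and 2.19% lower with bexarotene than in untreated EBs, and 2.11% and 2.29% with RA. Cer1, a secreted antagonist of anterior endoderm, had log2 differences of -3.98 with bexarotene and -4.04 with RA, Foxa1 -2.55 and -2.56, and Shh -2.19 and -1.97. Between the ligands none of these 11 genes was past 1.5-fold, with a median of 0.01, where 0.206% of all genes were higher and 0.301% lower. Tbx1, a T-box gene of the pharyngeal pouches and of pharyngeal mesoderm, had a signal of 8.34 with bexarotene, 7.91 with RA, 9.09 in untreated EBs and 7.55 in ES cells, the order of Pax9, and a log2 difference of 0.42 between the ligands. Of the 11 genes, 6 were higher and 5 lower with bexarotene than with RA. Among the lower were Shh at -0.21 and Nkx2-1 at -0.22. How many of all genes share the order of Pax9 was not counted, for Tbx1 or any other gene said to have it. Of 17 genes of lateral mesoderm and mesenchyme, 5 were past 1.5-fold higher with bexarotene than with RA and none lower, with a mean signal over the list of 8.02 with bexarotene, 7.62 with RA, 8.06 in untreated EBs and 6.98 in ES cells. Its mean hardly differed between bexarotene and untreated EBs, where the median log2 difference was 0.13 and 12 of the 17 genes were positive. Against untreated EBs, 2 of the 17 were past 1.5-fold higher and 3 lower with bexarotene, and 0 higher and 5 lower with RA. Lum, Postn and Prrx1 had log2 differences of -1.85, -1.54 and -0.93 with bexarotene and -1.91, -1.02 and -1.23 with RA. The signal of Prrx1 was 7.47 with bexarotene, 7.17 with RA, 8.39 in untreated EBs and 6.02 in ES cells, the order of Pax9. Osr1, a zinc finger gene of intermediate and lateral mesoderm, had a log2 difference of 1.71 between bexarotene and RA, Foxf1, a forkhead gene of splanchnic mesoderm, 1.28, and Prrx2, a homeobox gene of mesenchyme, 0.95. The part of these tissues in the Pax9 values was not tested.

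The other sclerotome genes stayed within 1.5-fold among EBs. Of 11 measured genes of sclerotome and tendon, none was past 1.5-fold with bexarotene or RA relative to untreated EBs, or between the ligands, with medians of -0.10, -0.07 and -0.03. Over all genes, 1.52% were higher and 2.19% lower with bexarotene, and 2.11% and 2.29% with RA. Between the ligands the shares were 0.206% and 0.301%, so a list of 11 with none past is near the background. Pax1, the closest relative of Pax9, had a signal of 7.41 with bexarotene, 7.16 with RA, 7.29 in untreated EBs and 7.13 in ES cells, and Nkx3-2, a homeobox gene of the sclerotome, had 6.54, 6.63, 6.73 and 6.68. Col2a1, a cartilage collagen gene, had 8.80 with bexarotene, 8.63 with RA, 8.93 in untreated EBs and 7.70 in ES cells, the order of Pax9 over smaller steps among EBs. Sox9, which drives cartilage formation and is also made in neural crest and endoderm, had 9.38, 9.57, 9.91 and 7.14 on the same arrays. Between untreated EBs and ES cells 2 of the 11 genes, Sox9 and Col2a1, were past 1.5-fold higher and Acan was lower. The genes nearest to Pax9 in pattern were Emcn (distance 0.17), a sialoprotein of endothelium, Calcrl (0.30), a receptor of endothelium, and Ppp1r16b (0.33).

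Twist1, a bHLH gene of sclerotome, cranial neural crest and other mesenchyme, followed a similar order over a smaller span. Its signal was 7.48 with bexarotene, 7.33 with RA, 7.83 in untreated EBs and 6.72 in ES cells. All EB arrays lay above the ES cell array, with untreated EBs 2.15-fold, bexarotene-treated EBs 1.70-fold and RA-treated EBs 1.52-fold higher than ES cells. Against untreated EBs it was lower by 1.27-fold on the bexarotene array and by 1.41-fold on the RA array, which is short of the threshold. Those differences were 2.65 and 3.87 times the yardstick and 1.62 and 2.16 times the spread of their own comparisons. The difference of 0.16 between the ligands was 1.21 times the yardstick. The genes nearest to Twist1 were Armcx2 (distance 0.04), Reck (0.06) and Setd7 (0.06). Among 11 genes of the neural crest, bexarotene had 4 and RA had 3 past 1.5-fold above untreated EBs and neither had any below. Of all genes, 1.52% were above and 2.19% below with bexarotene, and 2.11% and 2.29% with RA. Short of the threshold, 2 of the 11 were lower with bexarotene and 3 with RA, as Twist1 was. Among these were Msx1, at -0.12 with bexarotene and -0.39 with RA, and Erbb3, at -0.37 and -0.35. Ednrb, a receptor of crest cells and of neural progenitors, had log2 differences of 2.90 and 3.01, and Tfap2b, a crest transcription factor, 1.37 and 1.24. Ngfr had 0.73 with each ligand. The part of crest and other mesenchyme in the Twist1 values was not tested.

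**Figure D3:**
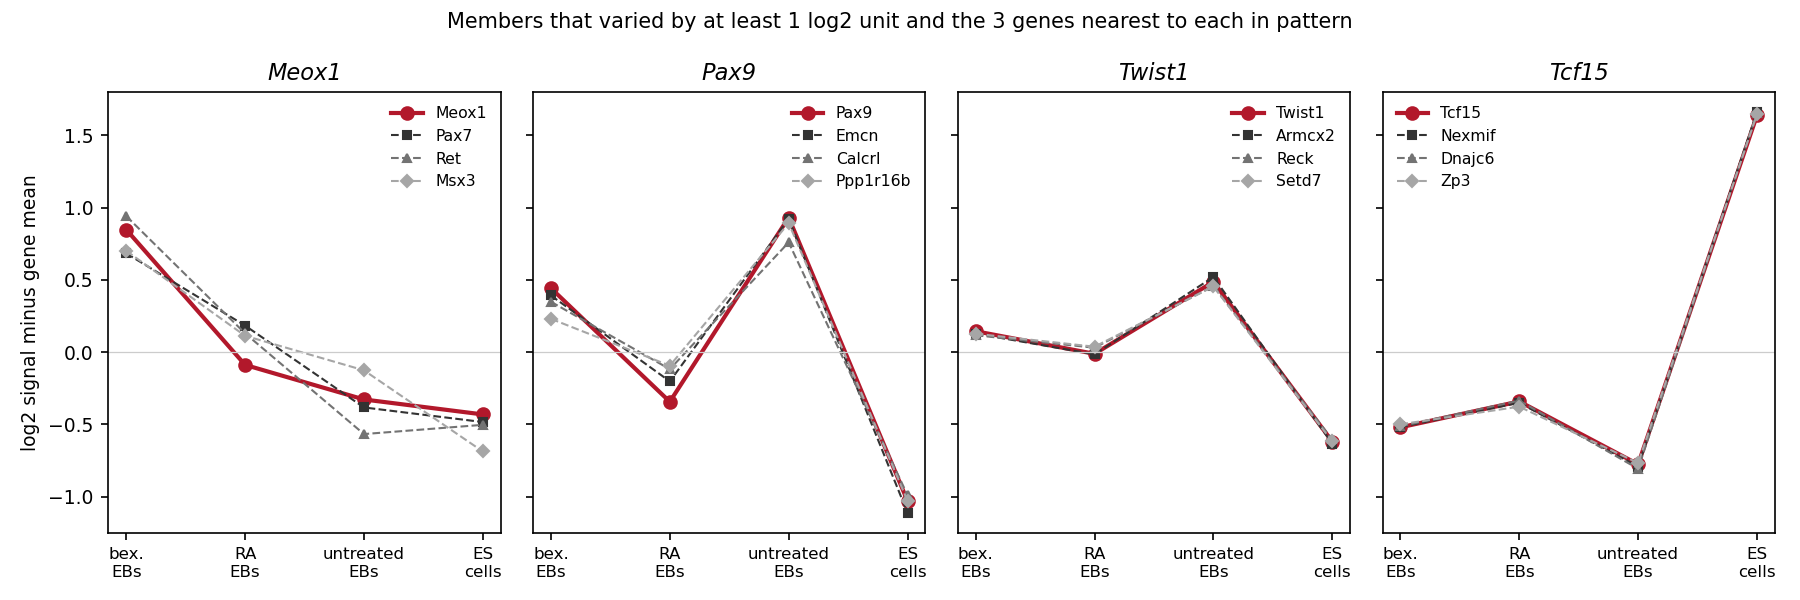
Log2 signal minus each gene's own mean over the 4 arrays, for the 4 factors that varied by at least 1 log2 unit (red) and the 3 genes nearest to each in pattern (grey, dashed). Pax7, Ret and Msx3 are at distances of 0.33 to 0.41 from Meox1, while the genes nearest to Tcf15 and Twist1 lie almost on their lines (0.03 to 0.06).

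Promoter sequence was examined for letters that retinoid receptors and factors of segmentation are known to bind. The table of RefSeq promoters used here matched 8 of the 10 factors, and Meox1 and Tcf15 are the others. In the 250 bases before the start, on both strands, the retinoid receptor hexamer AGGTCA was found in 0 of the 8 windows and in 14.0% of all 32851 windows of the same length. The E box CANNTG, bound by bHLH factors, was found in 5 of the 8 and in 66.2% of all windows, the Rbpj site TGGGAA of Notch signalling in 4 of the 8 and in 21.6%, and the T-box motif AGGTGT in 2 of the 8 and in 11.8%. Some genes have several windows, which are then not independent. The E box reads alike on both strands, and no matches overlap in the windows printed here. A match is a run of letters and not a known site, and the absence of one says only that these letters are not in this window.

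The windows of the 3 factors with differences between ligand-treated and untreated EBs above 0.3 in size on both ligand arrays are shown, from RefSeq on build GRCm38.p6, 5′ to 3′ along the gene, with matches to the 4 motifs in capitals. Pax9 and Twist1 were lower with both ligands and Uncx higher.
Pax9, chr12:56695221-56695470, plus strand: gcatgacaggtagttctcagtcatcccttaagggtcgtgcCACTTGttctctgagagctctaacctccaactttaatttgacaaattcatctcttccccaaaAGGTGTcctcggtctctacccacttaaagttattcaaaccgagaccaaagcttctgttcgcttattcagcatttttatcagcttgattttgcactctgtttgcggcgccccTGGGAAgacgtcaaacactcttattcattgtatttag
Twist1, chr12:33957421-33957670, plus strand: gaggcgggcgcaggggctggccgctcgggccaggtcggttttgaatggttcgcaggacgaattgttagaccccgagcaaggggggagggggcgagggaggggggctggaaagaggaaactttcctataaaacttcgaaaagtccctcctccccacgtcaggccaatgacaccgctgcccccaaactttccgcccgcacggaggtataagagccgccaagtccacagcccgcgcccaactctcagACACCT
Uncx, chr5:139543648-139543897, plus strand: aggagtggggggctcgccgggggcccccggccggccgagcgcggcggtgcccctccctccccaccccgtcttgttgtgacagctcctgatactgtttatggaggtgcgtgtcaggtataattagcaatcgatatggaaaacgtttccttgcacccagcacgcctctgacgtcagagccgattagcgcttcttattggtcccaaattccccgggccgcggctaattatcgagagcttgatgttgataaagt
The starts used for Pax9 and Uncx lie inside the annotated gene. The Pax9 window holds an E box, a T-box motif and an Rbpj site, 210, 148 and 37 bases before the start. The Twist1 window holds 1 T-box motif, on the reverse strand, in the last 6 bases before the start, and the Uncx window holds no match to any of the 4.

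**Figure D4:**
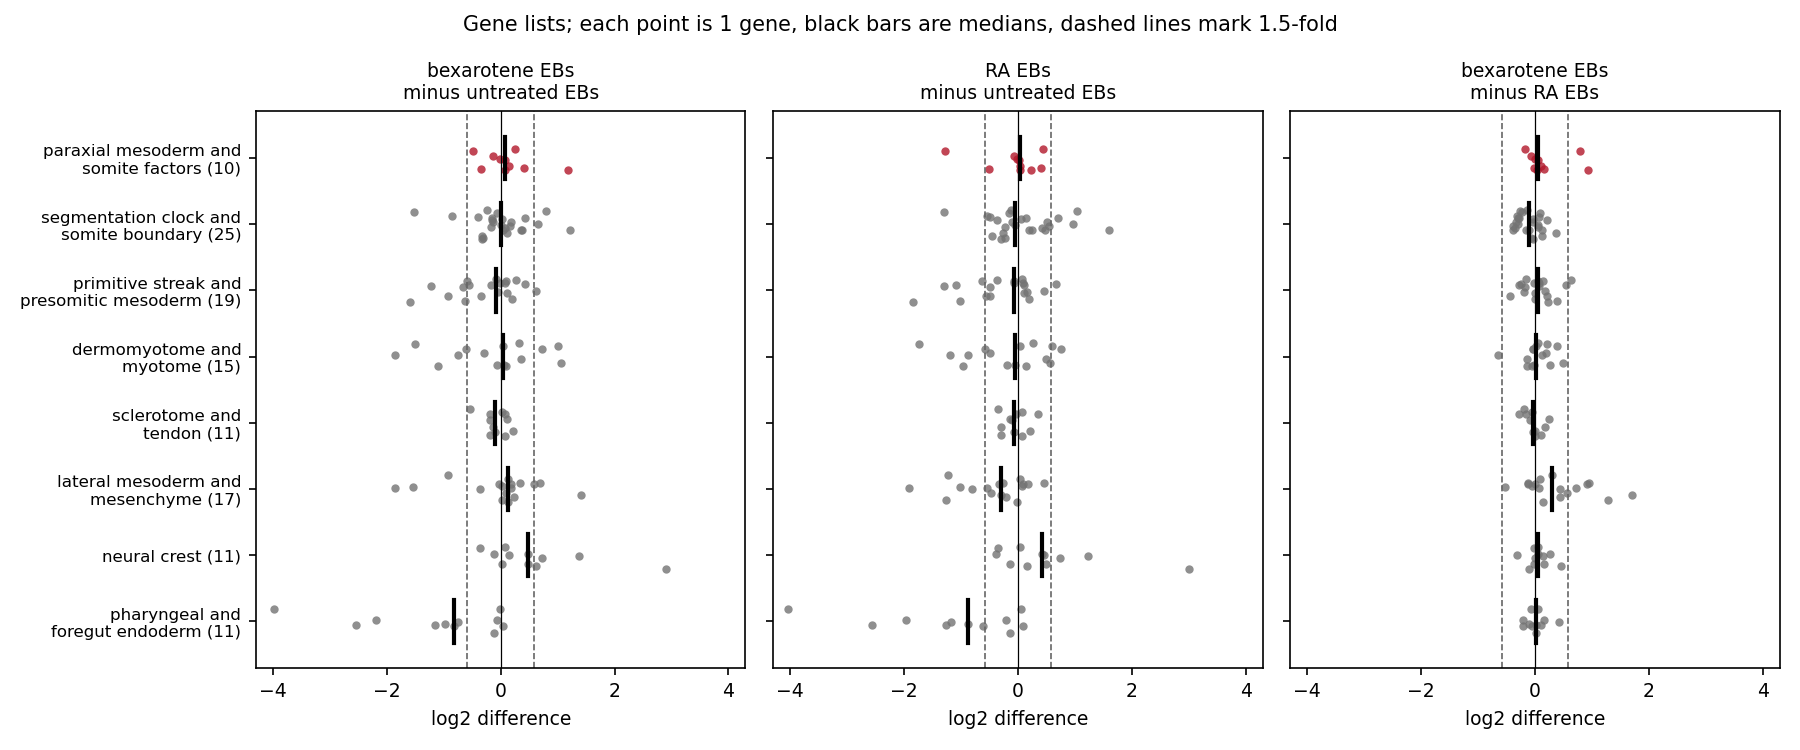
Log2 differences between arrays for the 10 factors (red) and for 7 lists of related genes or of other cell types (grey), with the number of measured genes in parentheses; each point is 1 gene, black bars are medians and dashed lines mark 1.5-fold. Lateral mesoderm and mesenchyme genes lie to the right between bexarotene and RA (median 0.30), and pharyngeal and foregut endoderm genes to the left with each ligand (medians -0.83 and -0.88) but near 0 between them (0.01).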

How the data were processed

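The table holds log2 signal per probe set for 4 Affymetrix whole-transcript arrays, deposited by the authors after background correction, normalization and summarization. Per the labels this was done with GCRMA in Affymetrix Expression Console, and the article names RMA in the same program. Scanner data were not processed again, and the number of arrays, 1 per condition, limits the precision. In the platform annotation, 21789 probe sets have 1 symbol, 1621 have several and 12146 have none. For levels, differences and ranks a gene with several probe sets stood by that with the highest mean, and each of the 10 factors had 1. Differences were computed between arrays with Python (pandas 2.3.3, numpy 2.4.6) and no test was made. Over 19938 genes, a gene was counted as past 1.5-fold where at least 1 probe set was and none was the other way. This way of counting was adopted after the values were seen, in place of the planned count by the probe set with the highest mean, which gives 295 higher and 429 lower genes for bexarotene against untreated EBs (304 and 437 as reported), 413 and 443 for RA against untreated EBs (420 and 456), 39 and 59 for bexarotene against RA (41 and 60) and 2195 and 1698 for untreated EBs against ES cells (2234 and 1718). The counts over the 10 factors and the lists are the same either way. The yardstick is the median absolute deviation of bexarotene minus RA in 20 bins of signal, scaled to an SD. Likeness is the Euclidean distance between mean-centred profiles, among genes with a range of at least 1 and no unnamed gene models. All 10 factors are named. The rule for the lists was the 3 genes of largest difference past 1.5-fold in each comparison among EBs. It also picked genes whose values are not given above. These are Dcx, Fabp7 and Elavl4 of the neural list, Utf1, Dppa5a, Nanog and Pou5f1 of pluripotency, and Meis1 and Cyp26b1 of the retinoid targets. Ripply1, Ripply2, the muscle-determining genes, Pax1, Pax3, Nkx3-2, Dll1, Heyl, Hes1 and the other Notch genes within the threshold, Pcdh8, Fgf4, Stra6, Tbx1, Col2a1, Sox9, Acan, Bmp4, Snai2 and some values beside a named gene were added after their values were seen. The same holds for Dusp6, Spry2, Spry4, Msx1 and Erbb3. The factors and lists were chosen with earlier results of these data known. Alternatives were a 2-fold threshold, quantile normalization, loess (span 0.3), a floor at the 25th percentile, leaving out probe sets below both arrays' medians, and the mean of probe sets. Identity between proteins was not analysed here.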

Additional observations from a re-analysis of the deposited data

Results flagged for a closer look

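As normalized by the authors, none of the 10 factors lay on opposite sides of untreated EBs with the 2 ligands. Meox2 did so with loess (0.08 with bexarotene and -0.02 with RA) and with quantile normalization (0.09 and -0.005), each value smaller than the yardstick. Among the other genes named, 5 did so with a difference between bexarotene and RA past 1.5-fold, and with 1 array per condition that difference was not tested. Relative to untreated EBs, Osr1 had a log2 difference of 1.41 with bexarotene and -0.30 with RA, which is 1.71 between the ligands. Foxf1 had 0.02 and -1.26, or 1.28 between the ligands, where the first value is smaller than the spread between arrays. Prrx2 had 0.69 and -0.26, or 0.95 between the ligands. The RA receptor gene Rarb had 0.27 and -0.38 (0.65 between the ligands), and Cyp26a1, which encodes an enzyme that degrades RA, had 0.27 and -0.36 (0.63 between the ligands). Outside the rule for naming genes, and chosen after their values were seen, Bmp4 of the same lists had 0.58 and -0.34 (0.91 between the ligands) and Snai2 0.18 and -0.53 (0.71 between the ligands).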

How the results depend on the processing

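Of 194 recomputed differences of single factors under 5 alternatives (quantile normalization, loess, the floor, the filter on low signal and the mean of probe sets), 194 moved by less than the yardstick, by 0.07 at most. Of these, 9 changed sign, none of them past the threshold and each at most 0.07 in size as reported. They were Mesp2 against untreated EBs with either ligand and between the ligands, and Uncx between the ligands, with quantile normalization, Meox2 with RA against untreated EBs with quantile normalization and loess, and Meox2, Tbx6 and Hes7 between untreated EBs and ES cells with loess. Under these alternatives the factors past 1.5-fold were the same in all 4 comparisons, and the medians of the 10 factors moved by less than the yardstick, with a change of sign only for untreated EBs against ES cells (0.03 with loess, -0.01 as reported). At a 2-fold threshold 0 of the 10 factors were past it between bexarotene and RA, in place of 2, while the factors past it in the other 3 comparisons stayed as they were. Of all 19938 genes, only 6 were past 2-fold higher and 0 lower between bexarotene and RA, so few genes of any kind were past it. The filter kept 8 or 9 of the 10 factors. With the floor, the filter and the mean of probe sets the largest shift was 0. All factors lay above the floor, the filter only leaves factors out, and each factor has 1 probe set. Only quantile normalization and loess could thus move a difference. No paired analysis was possible because each condition has 1 array. For the same reason no array could be left out, and signal near the array median limits what can be seen in the presomitic genes, Meox1 and Meox2.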
